A study of Mus musculus with 24 samples.

Results

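The comparison described here is the difference between db/db and db/+ mice in the liver when both genotypes drank sucrose. It rests on 4 of the 24 RNA-seq libraries of the series, chosen by their titles: 2 livers titled sucrose, db/db and 2 titled sucrose, db/+. All 4 came from male mice of the strain given as C57/BL6, with a treatment entry of 16 weeks. The db/db mice are a leptin receptor knockout model, and the db/+ mice carry a functional copy of the receptor gene beside the mutant one. The other 8 liver libraries, from both genotypes on water or on brazzein (2 each), a sweet-tasting protein studied as a sugar substitute, served to estimate the spread and to set the sucrose difference beside that on the other drinks. The labels do not give the age of the mice, the sucrose concentration, or whether a library is 1 animal or a pool, so p-values measure the spread between libraries, which may be technical. The genotype entry of the labels reads db/db for all 12 livers and contradicts the title of 6 of them, so the titles were used.

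Leptin is the satiety hormone of fat tissue, and mice without a working leptin receptor overeat, become obese and insulin resistant, and store fat in the liver. Sucrose is split into glucose and fructose, and fructose is taken up and metabolised largely by the liver, where its carbon can enter fatty acid synthesis. Liver lipid genes are set by several well-known regulators: SREBP1c and ChREBP drive lipogenesis, SREBP2 drives cholesterol synthesis, and PPARα drives fatty acid oxidation. Sex-biased liver genes form a separate programme that follows the pattern of growth hormone secretion.

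Total estimated counts were 62331618 and 73843890 in the db/+ sucrose livers and 70003841 and 67762014 in the db/db sucrose livers. Levels are given as CPM, the estimated count divided by the TMM-scaled library total in the usual unit, with n = 2 libraries a group. Where 2 pairs of levels follow each other, the first pair is db/+ and the second db/db, each with replicate 1 before replicate 2. The hepatocyte markers summed to 92247 and 90236 CPM in db/+ and to 93894 and 89745 CPM in db/db, sums that overlap between genotypes and match the labelled tissue. Taken singly, 6 of the 10 markers were lower in db/db without overlap (60%, against 26.7% of all genes tested). Higher without overlap were 2 (20%, against 26.9%), and the median log2 difference was -0.27. Of the marker lists of other cell types, 5 of 10 pancreas genes (Cpa1, Amy2a5, Pnlip, Ctrb1 and Ins1), 1 of 11 neutrophil genes (Ly6g) and 1 of 8 fat cell genes (Lep) were listed at 0 in all 4 libraries. Macrophage, matrix and erythroid genes were detected, and their sums are given with those genes. In bulk liver, fewer cells of a type and less RNA per cell cannot be told apart. Mitochondrial ribosomal RNA took 0.912% and 1.29% of counts in db/+ and 0.263% and 0.296% in db/db, and its part in the results below was not tested.

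Lepr, the receptor gene of the model, had 13.97 and 18.9 CPM in db/+ on sucrose, against 1.56 and 2.504 CPM in db/db. The log2 difference was -3.02 (SE 0.57), with an adjusted p of 0.0598 in edgeR's quasi-likelihood test, 1.2e-05 in DESeq2 and 0.0147 in limma voom. The db/+ sucrose livers also stood above the db/+ livers on water (2.43 and 6.65 CPM) and on brazzein (1.901 and 2.77 CPM). All receptor isoforms are summed in 1 value per gene, so the labels could not be checked against the mutation from it.

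Of 19352 genes tested, 168 passed an adjusted p of 0.05 in edgeR's quasi-likelihood test, which is 0.868% of the genes. Of these, 91 (0.47%) were higher in db/db and 77 (0.398%) were lower. At an unadjusted p under 0.05 there were 3156 genes (16.3%), 1554 higher (8.03%) and 1602 lower (8.28%), against 968 that chance alone would give. DESeq2 called 1590 genes (8.22%) and limma voom 782 (4.04%). All 168 edgeR calls were also DESeq2 calls, and 161 were also voom calls. The edgeR count also moved when a water or brazzein library was left out. It rose without either db/+ brazzein library and fell without any of the others. The calls rest on all 4 sucrose libraries: 19 genes were called without db/+ replicate 1, 33 without db/+ replicate 2, 24 without db/db replicate 1 and 32 without db/db replicate 2. Of the 51 called genes named below by rule, 4, 5, 10 and 12 were still called in those same fits. In all 4 fits 5 of the 168 passed: Cdc42se2, Farp1, Ifi27l2b, B430119L08Rik and Gm16587, named after their values were seen.

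**Figure D1:**
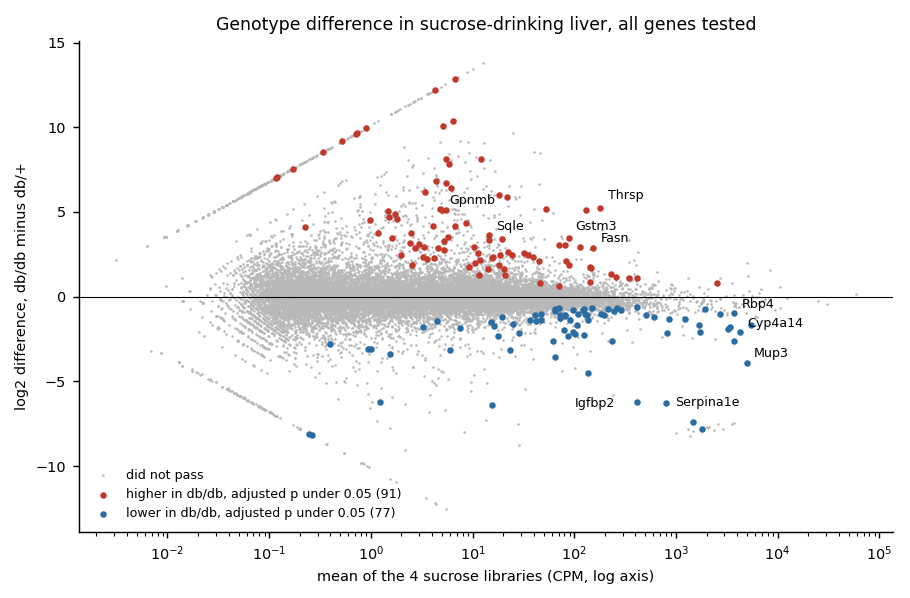
Each point is 1 of the genes tested, placed by its mean over the 4 sucrose libraries (CPM, log axis) and its log2 difference between db/db and db/+. The 91 genes called higher are red and the 77 called lower are blue. The genes called lower lie mostly at higher levels than those called higher, and Mup3, Serpina1e and Igfbp2 are among the abundant transcripts that fell.

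Of the lipogenesis genes, 3 rose in db/db liver, 2 of fatty acid synthesis and 1 of desaturation. Fasn, which makes palmitate, was 38.9 and 34.4 CPM in db/+ and 315 and 225 CPM in db/db. It rose by 2.88 on the log2 scale (SE 0.28, adjusted p = 0.012). Thrsp, a nuclear protein that promotes lipogenesis, went from 10.6 and 8.35 CPM to 427 and 275 CPM (log2 5.21, SE 0.61, adjusted p = 0.0199). For both genes the db/db replicates differed from each other by less than the gap to the db/+ livers. Fads1, the delta-5 desaturase of polyunsaturated fatty acids, was 208 and 231 CPM in db/+ and 531 and 400.1 CPM in db/db (log2 1.08, SE 0.17, adjusted p = 0.0367).

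These were the 3 of 22 lipogenesis genes that passed in edgeR, all higher, while voom called 4 and DESeq2 7, also all higher. The median log2 difference over the 22 was 1.24, against -0.0029 over all genes tested. It was similar on the other drinks, at 1.36 on water and 1.12 on brazzein. Fasn differed by 2.34 on water and 2.18 on brazzein and Thrsp by 5.59 and 4.01, and both were called on each drink. In 18 of the 22, both db/db values lay above both db/+ values, a pattern seen in 26.9% of all genes, and 0 had the opposite pattern, seen in 26.7%. Scd1, the desaturase that makes oleate, was 1867 and 2155 CPM in db/+ and 11891 and 4186 CPM in db/db, with a log2 difference of 1.999 (adjusted p = 0.163): its db/db replicates differed widely. Acly, which supplies acetyl-CoA from citrate, was 45.3 and 36.1 CPM and 134 and 94.6 CPM (log2 1.49, adjusted p = 0.0708). Srebf1, which encodes SREBP1, was 19.8 and 6.12 CPM and 37.00 and 49.8 CPM (log2 1.74, adjusted p = 0.238), and Mlxipl, which encodes ChREBP, was 92.3 and 102 CPM and 119.5 and 129 CPM (log2 0.36, adjusted p = 0.534). Acaca, the acetyl-CoA carboxylase that precedes Fasn, was listed near 0 in both db/+ livers (0.0346 and 0.222 CPM) and at 16.95 and 34.3 CPM in db/db. It was also near 0 in 7 other liver libraries of either genotype, and a low level and a failed estimate cannot be told apart there.

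Genes of glucose use also differed. Hk2, a hexokinase with high affinity for glucose that is scarce in normal liver, was 0.398 and 1.01 CPM in db/+ and 15.7 and 9.43 CPM in db/db (log2 4.15, SE 0.59, adjusted p = 0.0294). Pygl, liver glycogen phosphorylase, was 173 and 146 CPM and 337 and 376 CPM (log2 1.16, SE 0.17, adjusted p = 0.0311).

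Like all 168 called genes, Hk2 and Pygl did not overlap between genotypes. Among 37 genes of fructose and glucose use edgeR called 3, voom 6 and DESeq2 8, all higher. The list's median log2 difference was 0.43 on sucrose, 0.73 on water and 0.44 on brazzein. Of the fructose genes, ketohexokinase (Khk), which phosphorylates fructose, was 234 and 227 CPM in db/+ and 471 and 503 CPM in db/db (log2 1.08, adjusted p = 0.093). Tkfc, the triose kinase of the same pathway, was 234 and 166 CPM and 424 and 482 CPM (log2 1.18, adjusted p = 0.199). Neither overlapped between genotypes, and neither passed. The fructose transporter Slc2a5 overlapped, at 7.97 and 2.98 CPM and 5.42 and 3.18 CPM. Pklr, the liver pyruvate kinase, was 33.7 and 49.4 CPM and 218 and 167 CPM (log2 2.21, adjusted p = 0.0816). Txnip, a gene induced by glucose, was 11.4 and 19.4 CPM and 86.7 and 38.2 CPM (log2 2.02, adjusted p = 0.147). Of 23 genes of gluconeogenesis and amino acid use, 0 passed in edgeR, and voom and DESeq2 called 1 each. At an unadjusted p under 0.05 there were 4, where 16.3% of all genes tested passed. Pck1, the gluconeogenic carboxykinase, was 4334 and 3088 CPM and 1986 and 2339 CPM (adjusted p = 0.402), and G6pc, the glucose-6-phosphatase, overlapped.

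Cholesterol synthesis genes were mostly higher in db/db liver. Of 25 members 4 passed, all higher: Sqle, Idi1, Nsdhl and Fdps. Voom called 5 and DESeq2 14, again all higher. Idi1, which isomerises the isoprene unit, was 3.39 and 3.39 CPM in db/+ and 51.04 and 19.4 CPM in db/db, a rise of 3.38 on the log2 scale (SE 0.44, adjusted p = 0.0244). Sqle, squalene epoxidase, was 2.196 and 2.14 CPM and 39.6 and 13.7 CPM (log2 3.62, SE 0.54, adjusted p = 0.0322). Nsdhl, a sterol dehydrogenase, was 6.43 and 5.995 CPM and 47.7 and 28.7 CPM (log2 2.62, adjusted p = 0.0294), and Fdps, which makes farnesyl diphosphate, was 12.7 and 22.00 CPM and 206 and 84.8 CPM (log2 3.06, adjusted p = 0.037). The db/+ replicates were close to each other except for Fdps, whereas db/db replicate 1 stood well above db/db replicate 2 in all 4 genes.

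Over the 25 genes the median log2 difference was 1.67. In 22 both db/db values lay above both db/+ values (88%, against 26.9% of all genes). The opposite pattern was seen in 1, Ebp (4%, against 26.7%). Without each sucrose library in turn the list's calls numbered 0 (without db/+ replicate 1), 1 (without db/+ replicate 2), 1 (without db/db replicate 1) and 4 (without db/db replicate 2), and its median lay between 0.96 and 1.90. Insig1, a sterol-sensing regulator, was 29.1 and 27.5 CPM and 173 and 55.00 CPM (log2 2.01, adjusted p = 0.132). The regulator gene Srebf2 itself was 23.4 and 29.5 CPM and 44.7 and 31.7 CPM (log2 0.53, adjusted p = 0.325).

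The mean level of the 25 genes, on the scale log2(CPM + 1), was 3.96 and 3.96 in the db/+ sucrose libraries, 6.05 and 5.11 in db/db on sucrose, 4.84 and 4.26 in db/+ on water, 5.53 and 5.17 in db/db on water, 4.812 and 4.998 in db/+ on brazzein, and 5.57 and 5.12 in db/db on brazzein. The db/+ sucrose livers were the lowest of the 12, and the db/db livers overlapped across drinks. The genotype difference had a median of 0.49 on water and 0.61 on brazzein. The list's median difference of differences between sucrose and water was 0.94. No member passed that test in edgeR, but 6 were higher and 1 lower at an unadjusted p under 0.05, which is 28% of the list against 4.97% of all genes tested. Sqle had the greatest ratio of effect to error among the 4 called genes here (2.56, SE 0.70, unadjusted p = 0.00648, adjusted p = 0.915).

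The promoters of 3 cholesterol synthesis genes are shown because most of the list was higher in db/db and SREBP2 targets carry known elements: the sterol regulatory element and the CCAAT box, bound by NF-Y. Sequences are RefSeq promoters of GRCm38.p6, plus strand, 5′ to 3′, from 250 bases before to 50 after the gene's start. Capitals mark CCAAT on either strand (read as ATTGG on the minus strand) and, in Hmgcs1 only, the sterol regulatory element TCACNCCAC.
Idi1, chr13:8885356-8885655: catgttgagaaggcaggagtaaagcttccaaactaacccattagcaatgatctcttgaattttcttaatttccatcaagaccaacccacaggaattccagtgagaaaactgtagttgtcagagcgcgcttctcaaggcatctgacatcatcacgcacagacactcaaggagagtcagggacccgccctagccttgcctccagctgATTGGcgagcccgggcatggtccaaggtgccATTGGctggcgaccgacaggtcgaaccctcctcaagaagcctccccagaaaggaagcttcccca
Nsdhl, chrX:72918271-72918570: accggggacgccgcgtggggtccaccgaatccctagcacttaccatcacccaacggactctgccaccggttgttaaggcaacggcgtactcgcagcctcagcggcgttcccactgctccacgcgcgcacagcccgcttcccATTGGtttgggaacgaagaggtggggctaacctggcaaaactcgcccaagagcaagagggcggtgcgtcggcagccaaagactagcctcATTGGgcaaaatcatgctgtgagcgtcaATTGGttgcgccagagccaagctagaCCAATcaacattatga
Hmgcs1, chr13:119690101-119690400: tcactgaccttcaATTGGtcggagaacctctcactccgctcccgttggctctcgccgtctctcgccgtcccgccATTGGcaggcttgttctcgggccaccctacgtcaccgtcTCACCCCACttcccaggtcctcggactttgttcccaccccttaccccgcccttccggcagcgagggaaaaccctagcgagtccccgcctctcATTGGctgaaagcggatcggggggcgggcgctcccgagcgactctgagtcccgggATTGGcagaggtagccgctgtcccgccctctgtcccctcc
Idi1 held 2 CCAAT matches, Nsdhl 4, and Hmgcs1 4 with 1 match to TCACNCCAC. Hmgcs1, which makes HMG-CoA, did not pass: it was 78.9 and 78.2 CPM in db/+ and 283 and 153 CPM in db/db (log2 1.47, adjusted p = 0.0956). A promoter was at hand for 17 of the 25 list genes, 70 of the 91 genes called higher, 46 of the 77 called lower and 12146 of all genes tested. On both strands, CCAAT was found in 16 of the 17 cholesterol promoters (94.1%), in 47.1% of promoters of genes called higher, in 56.5% of those called lower and in 42.5% of all. TCACNCCAC was found in 1 of the 17 (5.88%) and in 1.47% of all. These 2 motifs were added after the calls were seen. TTCNNNGAA, the STAT5 motif, was in 4.29% of promoters called higher, 6.52% called lower and 8.46% of all. The E-box CACGTG was in 5 of the 70 (7.14%), 1 of the 46 (2.17%) and 1335 of the 12146 (11%), and in 4 of the 17 cholesterol promoters (23.5%). The carbohydrate response element, searched as CACGTG repeated after NNNNN, and the PPAR element, searched as AGGTCA repeated after N, had no match among called genes, and 0 and 8 matches among all. A match is a description of letters in a window, not of binding.

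**Figure D2:**
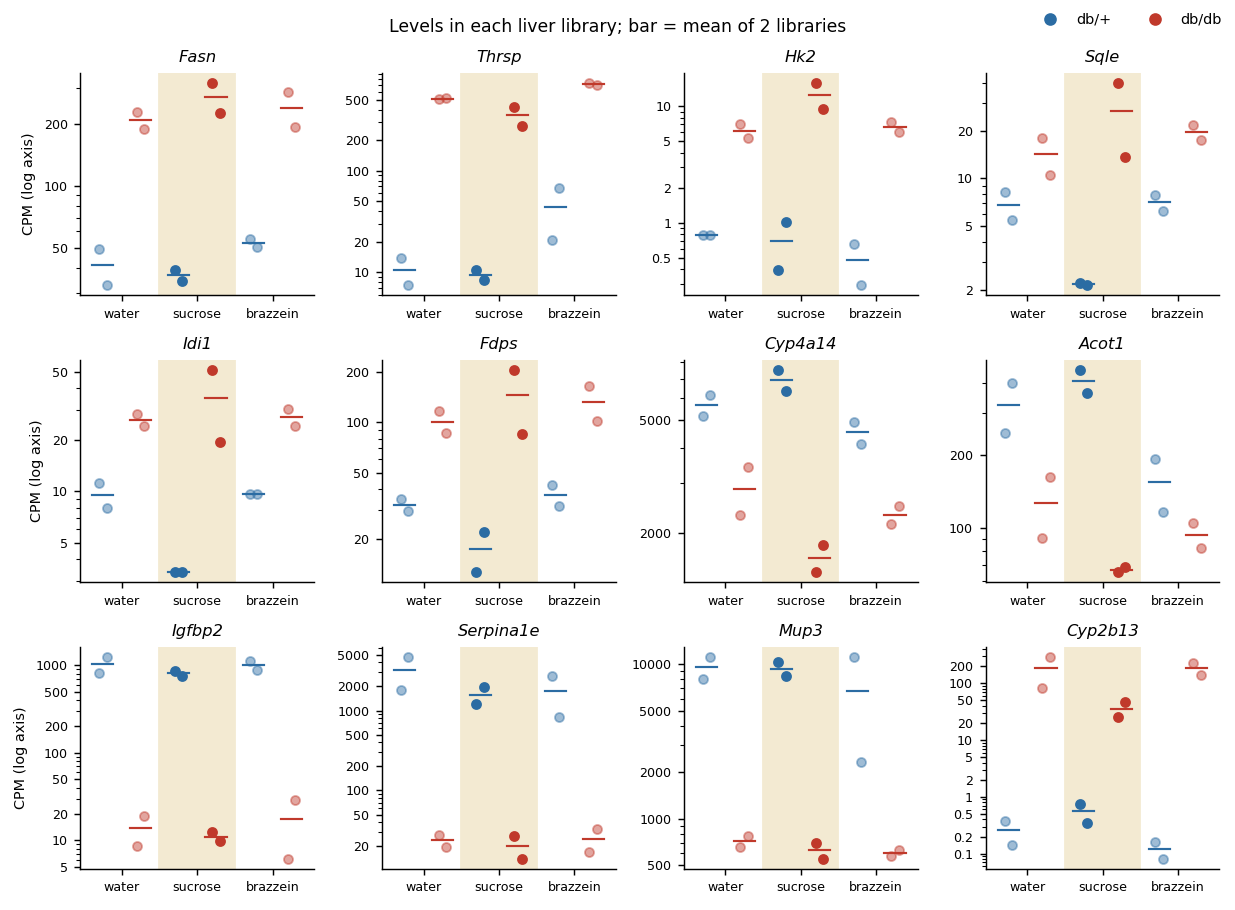
Levels of 12 called genes (CPM, log axis) in each of the 12 liver libraries, with db/+ in blue, db/db in red, a bar at the mean of 2 libraries and sucrose shaded. On sucrose no gene overlaps between genotypes, which holds for all 168 called genes. Sqle, Idi1 and Fdps are lowest in the db/+ sucrose livers, while Igfbp2, Serpina1e and Mup3 are about as low in db/db on every drink.

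Lipid storage genes gave 1 call among 33 droplet and uptake genes, and several of them were at higher levels in db/+ livers on sucrose relative to db/+ on the other drinks, without a test of that comparison. Mogat1, which makes diacylglycerol from monoacylglycerol, was 4.76 and 3.79 CPM in db/+ and 18.98 and 15.2 CPM in db/db (a rise of 2 on the log2 scale, SE 0.34, adjusted p = 0.0449). On water and brazzein its difference was 3.89 and 4.21, with db/+ levels of 1.65 and 1.42 CPM and 1.596 and 1.01 CPM. The same side-by-side pattern was seen in genes that did not pass on sucrose. Cidec, a droplet fusion protein, was 87.01 and 82.4 CPM in db/+ and 248 and 203 CPM in db/db on sucrose (log2 1.41, adjusted p = 0.145), with differences of 3.49 on water and 3.51 on brazzein. Apoa4, an apolipoprotein that follows liver fat, was 5992 and 2426 CPM and 11408 and 13625 CPM (log2 1.57, adjusted p = 0.258), against 4.63 on water and 5.26 on brazzein. Cd36, a fatty acid uptake protein, was 231 and 148 CPM and 304 and 318 CPM (log2 0.71, adjusted p = 0.296), against 2.38 and 1.88.

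In each of these 4 genes the db/+ livers on sucrose held more than the db/+ livers on the other drinks. No drink difference passed for any of these 4 genes or for any member of the droplet and uptake list. The list's median log2 difference was 0.19 on sucrose, 0.63 on water and 0.63 on brazzein. At an unadjusted p under 0.05, 7 of 33 members had a lower difference on sucrose than on water and 1 a higher one. That is 24.2% of the list, against 4.97% of all genes tested. Against brazzein 11 were lower and 1 higher (36.4%, against 10.3% of all genes). Voom called 4 members higher on sucrose, and DESeq2 called 5 higher and 1 lower. Cidea, a droplet protein normally of brown fat, was near 0 in db/+ (0.415 and 0.111 CPM) and 111 and 70.8 CPM in db/db (adjusted p = 0.0654), and Plin2, the main droplet coat protein of hepatocytes, overlapped (931 and 833 CPM and 739.8 and 919 CPM). Pparg was 11.3 and 9.87 CPM and 31.4 and 25.8 CPM (log2 1.43, adjusted p = 0.199).

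Of the genes of fatty acid oxidation, 3 fell in db/db liver, all from its peroxisomal and omega-oxidation group. Cyp4a14, a fatty acid omega-hydroxylase induced by PPARα, was 7513 and 6368 CPM in db/+ and 1461 and 1811 CPM in db/db and fell by 2.08 on the log2 scale (SE 0.23, adjusted p = 0.0163). Its close relative Cyp4a10 was 2948 and 2662 CPM and 656 and 657 CPM (log2 -2.10, SE 0.29, adjusted p = 0.0282). Acot1, a thioesterase of long-chain acyl-CoA, was 451 and 364 CPM and 65.8 and 68.7 CPM (log2 -2.60, SE 0.38, adjusted p = 0.0311). The 3 genes have near-identical relatives, so reads may have been shared between copies. On water the differences were -0.98, -1.10 and -1.36, and on brazzein -0.97, -1.51 and -0.72.

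Over the 38 genes of fatty acid oxidation and ketogenesis, 3 passed, all lower, with 10 lower and 1 higher in voom and 11 lower and 1 higher in DESeq2. All 11 members of the peroxisomal and omega-oxidation group had a log2 difference below 0, with a median of -0.98. Ehhadh, the bifunctional enzyme of peroxisomes, was 3087 and 1788 CPM and 407 and 474 CPM (log2 -2.47, adjusted p = 0.0508). Acadl, a long-chain dehydrogenase of mitochondria, was 450 and 391 CPM and 289.6 and 290.0 CPM (log2 -0.54, adjusted p = 0.0731). Cpt1a, which lets long-chain fatty acids into mitochondria, was opposite in sign, at 192 and 91.00 CPM in db/+ and 789.6 and 464 CPM in db/db (log2 2.15, adjusted p = 0.0693). Ppara was 103 and 61.5 CPM and 254 and 132 CPM (log2 1.23, adjusted p = 0.265), and Fgf21, a hormone of the fasted liver, overlapped.

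The mean level of the 38 genes on the scale log2(CPM + 1) was 8.22 and 8.04 in db/+ on sucrose, the highest of the 12 livers, and 7.61 and 7.41 in db/db on sucrose. On water the db/+ livers held 7.74 and 8.03 and the db/db livers 7.68 and 7.90, and on brazzein 7.69 and 7.62 and then 7.87 and 7.56. The median difference was -0.48 on sucrose, -0.05 on water and 0.17 on brazzein. No member passed a test between drinks, but 14 were lower and 2 higher on sucrose than on water at an unadjusted p under 0.05 (42.1% of the list, against 4.97% of all genes).

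**Figure D3:**
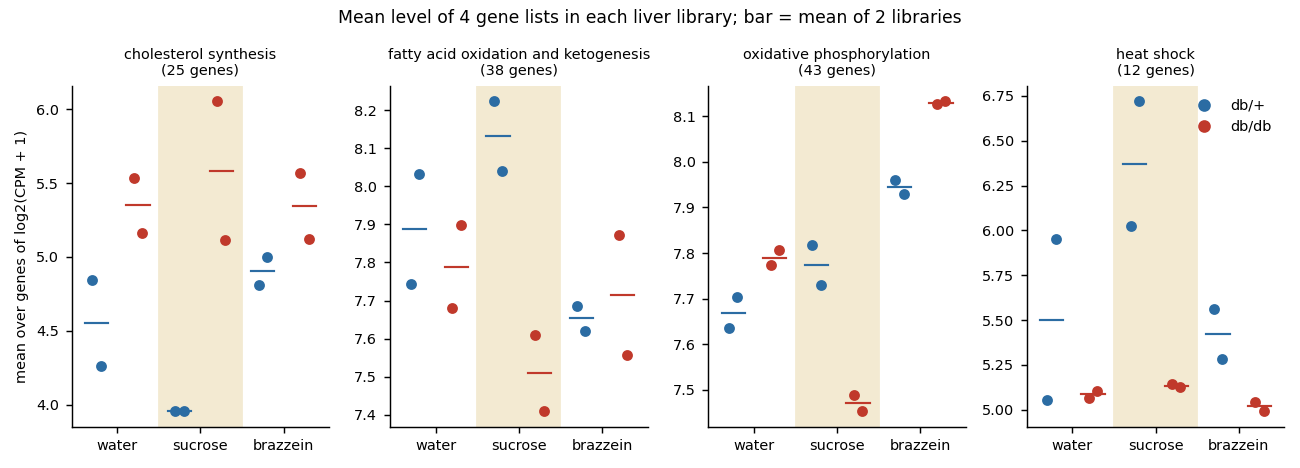
Mean level of 4 gene lists (mean over genes of log2(CPM + 1)) in each liver library, with db/+ in blue, db/db in red, a bar at the mean of 2 libraries and sucrose shaded. On sucrose the genotypes do not overlap in any of the 4 panels. The db/+ sucrose livers are the lowest of all for cholesterol synthesis and the highest for fatty acid oxidation and heat shock, and the db/db sucrose livers are the lowest for oxidative phosphorylation.

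Respiratory chain genes were mostly lower in db/db by small amounts. Of 43 nuclear-encoded subunits, Atp5o, a subunit of ATP synthase, passed: it was 262 and 269.8 CPM in db/+ and 163 and 164 CPM in db/db (log2 -0.70, SE 0.11, adjusted p = 0.0362). The list's median was -0.38 on sucrose, 0.09 on water and 0.19 on brazzein, and no member passed a test between drinks in edgeR. Small shifts depend on the scaling of libraries. The TMM factors were 0.928 and 0.976 in db/+ on sucrose and 1.12 and 1.185 in db/db on sucrose. With RLE factors the list's median on sucrose was -0.37, and the part of scaling was otherwise not tested. Without overlap 32 members were lower (74.4%, against 26.7% of all genes) and 4 higher (9.3%, against 26.9%). Voom and DESeq2 called 8 and 11 lower. Of 84 genes taken as cytosolic ribosomal protein genes by their symbol, a list chosen after results were seen, 2 passed (Rpl7a and Rplp2). The symbols also took in Rps19bp1, which is not a ribosomal protein, and copies such as Rps23rg1. They left out Fau, a ribosomal protein gene that was called lower. That list's median was -0.60, and 75 members were lower without overlap (89.3%, against 26.7% of all genes). On the mitochondrial genome, which encodes both ribosomal RNAs and part of the respiratory chain, 4 of 34 genes passed, all lower: mt-Rnr1, mt-Rnr2, mt-Tc and mt-Ty. This family was picked after the calls were seen, and 0.398% of all genes tested were called lower. The ribosomal RNA gene mt-Rnr2 was 5893 and 6801 CPM in db/+ and 1000.3 and 1106 CPM in db/db (log2 -2.59, SE 0.22, adjusted p = 0.012). None of the 13 protein-coding genes of that genome passed in edgeR, and their median was -0.27. Transcript length moved with the difference: the median transcript was 973 bases for genes called lower, 1330 for genes called higher and 1309 for all, and across 6566 genes of at least 10 CPM Spearman's correlation between length and log2 difference was 0.171, where genes are not independent replicates. The part of length in these results was not tested.

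In the growth hormone axis and among male-biased genes, 5 genes fell in db/db liver. Igfbp2, a binding protein of insulin-like growth factors, was 859 and 759 CPM in db/+ and 12.3 and 9.703 CPM in db/db and fell by 6.20 on the log2 scale (SE 0.80, adjusted p = 0.0229). It was the 1 gene of 19 in the growth hormone and IGF list that passed, and voom and DESeq2 called 2 each, all lower. Igf1, the main growth factor made under growth hormone, was 411 and 489 CPM and 292 and 175 CPM (log2 -0.95, adjusted p = 0.196), and the feedback gene Socs2 was 7.47 and 26.6 CPM and 6.096 and 4.66 CPM (log2 -1.66, adjusted p = 0.239). The receptor gene Ghr overlapped (274 and 266 CPM and 304 and 213 CPM).

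Of 28 male-biased liver genes, 4 passed in edgeR (Serpina1e, Mup3, C8b and Cyp2u1), 20 in voom and 22 in DESeq2, all lower in db/db. The median log2 difference was -2.51, and 25 members were lower without overlap (89.3%, against 26.7% of all genes). Serpina1e, an alpha-1 antitrypsin paralog, was 1195 and 1949.9 CPM in db/+ and 26.9 and 14.01 CPM in db/db (log2 -6.26, SE 0.84, adjusted p = 0.026). Mup3, a major urinary protein that carries pheromones, was 10351 and 8391 CPM and 699 and 552 CPM (log2 -3.90, SE 0.64, adjusted p = 0.041), and Mup13 and Mup16 fell by 7.79 and 7.41. The Mup genes, and likewise the Serpina1 genes, are near-identical copies of each other, so counts may be split between them. C8b, a complement component, was 129 and 124 CPM and 39.5 and 23.98 CPM (log2 -1.99, adjusted p = 0.0362), and the P450 Cyp2u1 was 34.3 and 25.3 CPM and 6.06 and 5.94 CPM (log2 -2.31, adjusted p = 0.0362). Mup20, the male pheromone protein darcin, and the fatty acid elongase Elovl3 did not pass in edgeR (log2 -2.47, adjusted p = 0.0592, and log2 -4.24, adjusted p = 0.113) but had adjusted p-values of 0.0189 and 0.0494 in voom. The list's median was -3.07 on water and -3.16 on brazzein.

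Of 29 female-biased liver genes, 2 passed, both higher in db/db: Cyp2b13 and Sult1e1. Cyp2b13, a P450, was 0.761 and 0.347 CPM in db/+ and 25.05 and 46.4 CPM in db/db (log2 6.02, SE 0.85, adjusted p = 0.0294). In db/db livers its levels on the other drinks lay above those on sucrose (82.2 and 290.5 CPM on water, 228 and 141 CPM on brazzein). Sult1e1, which sulfates estrogen, was listed at 0 in both db/+ livers and at 12.6 and 14.5 CPM in db/db (adjusted p = 0.0347). The list's median was 2.15 on sucrose, 2.62 on water and 0.41 on brazzein. Without overlap 17 members were higher (58.6%, against 26.9% of all genes) and 0 lower (against 26.7%). DESeq2 called 10 members, all higher, Cyp2b13 and Sult1e1 among them. Voom called neither of these (adjusted p = 0.0641 and 0.141) but 2 other members, Cyp2a4 and Atp6v0d2, both higher and named after their values were seen. For Cyp2b9, replicates disagreed: 1 of the 2 libraries was near 0 in each genotype (0.259 and 13.99 CPM and 0.255 and 16.9 CPM).

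**Figure D4:**
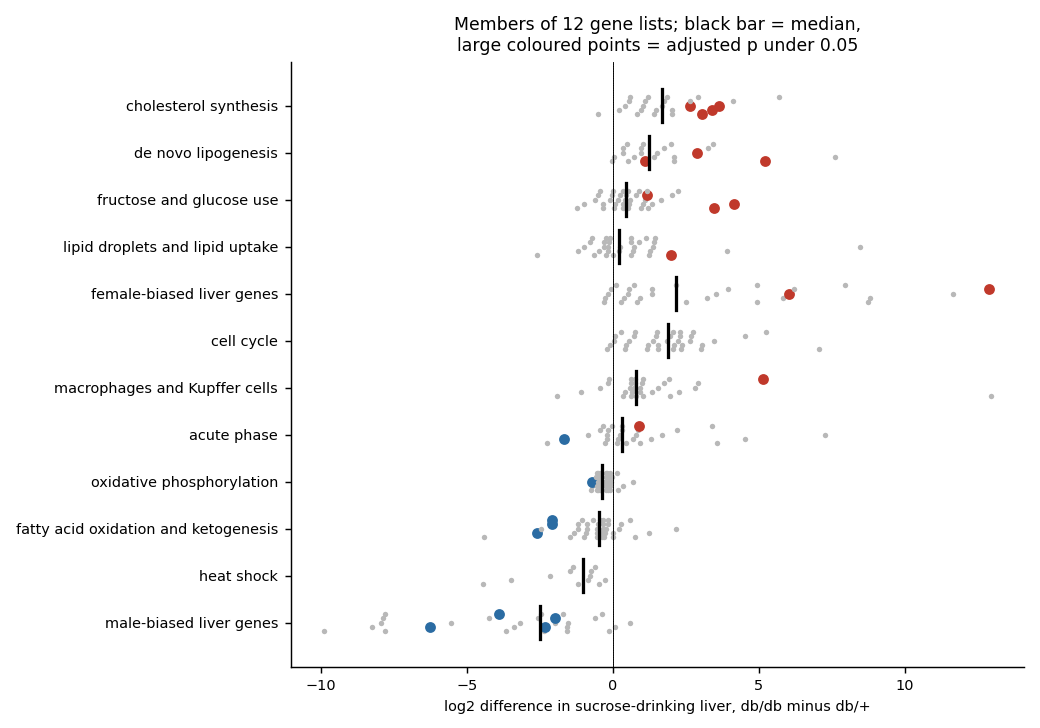
Log2 difference on sucrose (db/db minus db/+) of every tested member of 12 gene lists, with the median as a black bar and called members as large coloured points. Cholesterol synthesis, lipogenesis, female-biased and cell cycle genes lie mostly right of 0, and male-biased, heat shock, oxidation and respiratory chain genes mostly left of it. Few members of any list pass the test.

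Detoxification genes changed in both directions. Among 27 genes of xenobiotic metabolism, Gstm2 and Gstm3 rose and Cyp2c54 and Cyp2c37 fell. Gstm3, a glutathione transferase, was 4.05 and 10.5 CPM in db/+ and 263 and 247 CPM in db/db (log2 5.13, SE 0.77, adjusted p = 0.0326), and Gstm2 was 33.8 and 43.9 CPM and 164 and 116 CPM (log2 1.85, adjusted p = 0.0209). Cyp2c54 was 130.5 and 109 CPM and 15.9 and 4.098 CPM (log2 -3.58, SE 0.56, adjusted p = 0.0362), and Cyp2c37 was 222 and 187 CPM and 51.6 and 35.5 CPM (log2 -2.23, adjusted p = 0.0322). For both Cyp2c genes the db/+ livers on sucrose held less than the db/+ livers on water (341 and 332 CPM and 362 and 434 CPM). Over all 93 cytochrome P450 genes tested, a family picked after the calls were seen, 9 fell and 4 rose. Of all genes tested, 0.398% were called lower and 0.47% higher. Sult2a8, a bile acid sulfotransferase of mouse liver, was 305 and 220.1 CPM and 15.9 and 7.22 CPM (log2 -4.50, SE 0.50, adjusted p = 0.0163).

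Plasma protein genes were split as well. Of 28 acute phase genes, Apcs (serum amyloid P), at 92.4 and 108 CPM and 172 and 196 CPM, rose by 0.87 (adjusted p = 0.0362). Serpina3k, a serine protease inhibitor, at 9219.8 and 7408 CPM and 2717 and 2439 CPM, fell by 1.69 (adjusted p = 0.0268). The acute phase genes Saa1 and Lcn2 had log2 differences of 2.20 (adjusted p = 0.216) and 4.50 (adjusted p = 0.09). Rbp4, the retinol carrier of plasma, was 5199.7 and 4685 CPM in db/+ and 2620.5 and 2405 CPM in db/db (log2 -0.98, SE 0.14, adjusted p = 0.0293) and was the 1 of 23 hepatokine genes to pass. C8b was the 1 of 25 complement genes. Beside Serpina1e, its paralogs Serpina1a and Serpina1c fell (log2 -1.02 and -1.79).

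Macrophage genes included 1 called member of 31. Gpnmb, a glycoprotein of lipid-laden macrophages, was 0.259 and 0.291 CPM in db/+ and 6.96 and 12.6 CPM in db/db (log2 5.14, SE 0.80, adjusted p = 0.0362). Trem2, a receptor of the same cells, was 0.329 and 0.652 CPM and 2.95 and 4.45 CPM (log2 2.90, adjusted p = 0.0501), just outside the threshold. Voom called 5 members and DESeq2 7, all higher. The summed level of the 31 markers was 311 and 682 CPM in db/+ and 767 and 905 CPM in db/db, so the genotypes did not overlap but the db/+ replicates differed by more than the gap between the groups. Its median log2 difference was 0.79. Of 37 matrix and stellate cell genes, Mmp13, a collagenase, passed; it was listed at 0 in both db/+ livers and at 0.816 and 1.26 CPM in db/db (adjusted p = 0.0294). The marker sums of that list overlapped (1144 and 1160 CPM in db/+, 1159 and 1320 CPM in db/db), and Col1a1, a fibrillar collagen, was 2.51 and 4.11 CPM and 5.31 and 9.03 CPM (adjusted p = 0.229). Erythroid genes summed to 1046 and 674 CPM in db/+ and to 1931 and 1123 CPM in db/db. Fat cell markers, leaving out Cyp2e1, which liver makes, summed to 13.1 and 15.1 CPM in db/+ and to 25.5 and 27.6 CPM in db/db. These 2 sums were higher in db/db without overlap, and the part of blood or fat cell RNA in the results was not tested.

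Cell cycle genes had a median log2 difference of 1.90. Without overlap 29 of 36 were higher (80.6%, against 26.9% of all genes) and 0 lower (against 26.7%). None passed in edgeR, while 22 had an unadjusted p under 0.05, voom called 2 and DESeq2 14, all higher. Of all genes, 8.03% were higher at that unadjusted p. Levels were low: Mki67, the proliferation marker, was 0.6399 and 1.62 CPM and 4.298 and 9.88 CPM (log2 2.64, adjusted p = 0.0956), and Ccnb2, a mitotic cyclin, was 0.432 and 0.666 CPM and 2.04 and 5.01 CPM (log2 2.68, adjusted p = 0.072). Heat shock genes had a median of -1.04, and 10 of 12 were lower without overlap (83.3%, against 26.7% of all genes). None passed in edgeR, while voom called 2 and DESeq2 6. At an unadjusted p under 0.05 there were 9, all lower, where 8.28% of all genes were lower. Hspa8, the constitutive chaperone, was 1438 and 1816 CPM and 800.3 and 603 CPM (log2 -1.21, adjusted p = 0.109), and Hspa1b, an inducible one, was 10.2 and 85.4 CPM and 5.204 and 3.301 CPM, with db/+ replicate 2 far above the rest. Atf3, a stress-induced transcription factor, was the 1 of 25 unfolded protein response genes to pass, at 0.761 and 0.763 CPM and 5.47 and 6.32 CPM (log2 2.95, SE 0.50, adjusted p = 0.0452), while the chaperone Hspa5 did not (452 and 498 CPM and 430.0 and 361 CPM, adjusted p = 0.79).

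Other lists held no edgeR call: lipoproteins (21 genes, 9 at an unadjusted p under 0.05), bile acids (20, 5), insulin signalling (20, 4), interferon response (26, 5), glucocorticoid-induced genes (14, 3), circadian clock (15, 0), hepatocyte markers (10, 2), bile duct cells (7, 0), fat cells (6, 2), pancreas (3, 2), chemokines and cytokines (22, 5), neutrophils (10, 0), lymphocytes (21, 0), endothelial cells (18, 1) and erythroid genes (8, 2). Over all genes tested, 16.3% had an unadjusted p under 0.05. Voom called 4 lipoprotein genes, 1 bile acid gene, 1 insulin signalling gene, 3 interferon genes and 1 hepatocyte marker in these lists and no other. DESeq2 called 6, 2, 4 and 4 in the same lists, 3 glucocorticoid-induced genes, 2 chemokine genes, 2 fat cell genes, 1 hepatocyte marker and 1 endothelial gene. In bile acids, Cyp7a1, the rate-limiting enzyme of bile acid synthesis, overlapped (1.16 and 1.04 CPM and 1.47 and 0.585 CPM), and Cyp8b1, which makes cholic acid, was 595 and 592 CPM and 475 and 277 CPM (adjusted p = 0.353).

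The water and brazzein livers share no library with the sucrose comparison and show how the 168 called genes stood on the other drinks, although all 3 contrasts share 1 estimate of the spread. On water 162 of them (96.4%) had the same sign, against 71.3% of all genes tested, and on brazzein 148 (88.1%), against 60.8%. Of the 168, 91 were called in the same direction on water, where 293 genes (1.51%) were called in all, and 71 on brazzein, where 305 (1.58%) were called. On all 3 drinks 62 passed and 67 on sucrose alone among the 3, which does not show that these 67 differ by drink. The 91 genes called higher had medians of 3.19 on sucrose, 2.34 on water and 1.55 on brazzein, and the 77 called lower -1.63, -1.06 and -0.84. Since the genes were chosen for their difference on sucrose, a smaller median elsewhere is part of that choice. These medians include 10 higher genes listed at 0 in both db/+ sucrose livers and 2 lower ones at 0 in both db/db sucrose livers, whose fitted values depend on the prior count. Igfbp2 had differences of -6.20 on water and -5.83 on brazzein, and Sprr1a, an envelope protein of stressed epithelia, was listed at 0 in all 6 db/+ livers and between 5.31 and 11.7 CPM in all 6 db/db livers.

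**Figure D5:**
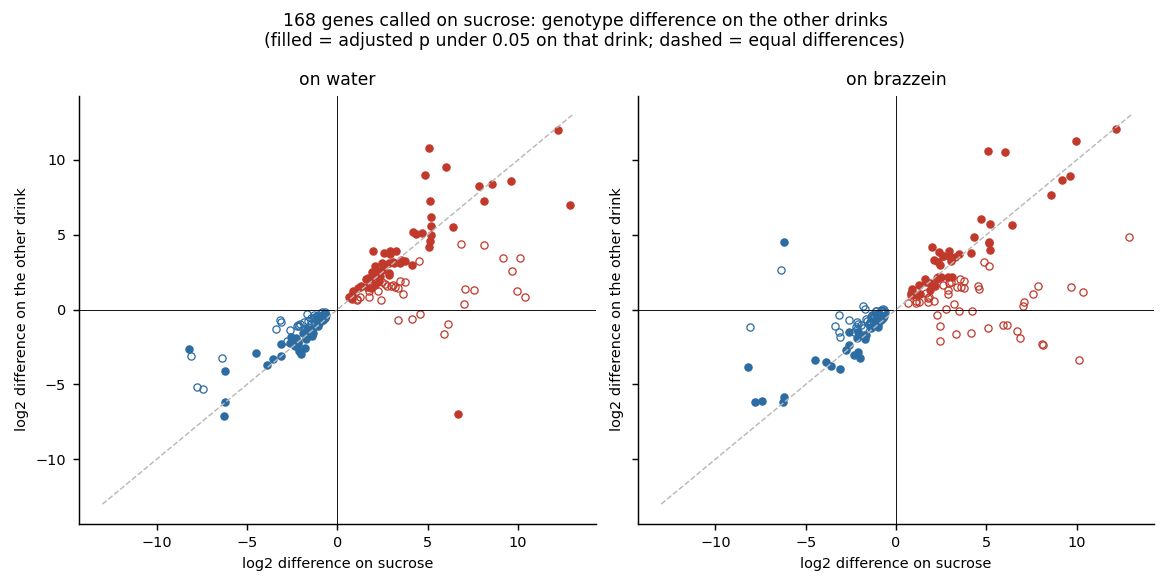
Each point is 1 of the 168 genes called on sucrose, placed by its log2 difference on sucrose and on water (left) or brazzein (right). Filled points were also called on that drink, and the dashed line marks equal differences. Most points keep their side of 0, and those that do not include Zfp367 on water and Wdr25 on brazzein.

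Tests of the difference between drinks gave few calls. Against water 3 genes passed (0.0155%), against brazzein 13 (0.0672%) and against the mean of both 7 (0.0362%), with 961, 1997 and 1526 genes at an unadjusted p under 0.05 and 968 given by chance. DESeq2 called 111, 496 and 314, and voom 4, 0 and 1. Most of these genes were all or nothing between groups. Cdc42se2, a small CDC42 effector, was 0.0173 and 0 CPM in db/+ on sucrose and 10.2 and 15.3 CPM in db/db. It was 8.63 and 6.58 CPM in db/+ on water and 4.75 and 6.07 CPM on brazzein, so only the db/+ sucrose livers were near 0. Huwe1, a ubiquitin ligase, was 0.744 and 0.708 CPM in db/+ and 20.9 and 65.5 CPM in db/db on sucrose and at most 1.38 CPM in the other 8 livers. A pair of genotype calls on sucrose had a similar pattern but passed no test between drinks. Farp1, a guanine nucleotide exchange factor, was 0 and 0.0139 CPM and 7.703 and 12.9 CPM on sucrose and at most 0.238 CPM in the other 8, and Mfsd6, a membrane transporter relative, was 0.104 and 0.0833 CPM and 5.84 and 7.66 CPM and at most 0.186 CPM elsewhere. Their adjusted p-values against water, brazzein and both were 0.687, 0.068 and 0.073 for Farp1 and 0.388, 0.184 and 0.108 for Mfsd6.

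Wdr25, a WD repeat protein, changed sides. It was 2.65 and 2.25 CPM in db/+ and 0.0255 and 0.0374 CPM in db/db on sucrose and 0.108 and 0.179 CPM and 3.96 and 2.62 CPM on brazzein, a difference of differences of -10.70 (SE 0.76, adjusted p = 0.0039). Pwp2, a ribosome assembly factor, Tent4a, a non-canonical poly(A) polymerase, and Mef2d, a transcription factor, passed against brazzein with 1 brazzein group listed at or near 0. On sucrose Pwp2 was 9.75 and 10.2 CPM and 11.5 and 12.5 CPM. Kbtbd2, a substrate adaptor of ubiquitin ligases, was 11.2 and 12.6 CPM and 10.9 and 10.5 CPM on sucrose but listed at 0 in both db/+ water livers, and at 0 or near it in all 4 brazzein livers. The files hold estimated counts, and a level at or near 0 in both libraries of 1 group cannot be told apart from a failed estimate. Of the 168 genotype calls, 29 were among the 1329 genes whose lowest library lay under 0.1 of their median, a set that includes Igfbp2 and Thrsp. With those 1329 genes left out, the drink tests called 0 genes against water, 1 against brazzein and 0 against both, and the genotype test on sucrose 177. Among the 1329 were all 3 drink calls against water, 10 of 13 against brazzein and 5 of 7 against both. The loss of drink calls was therefore largely set by the rule and is no separate check of them.

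Among the remaining genes with the greatest changes, several were near 0 in 1 genotype or in most groups. Tmem63a, a mechanosensitive channel, was 0.0173 and 0.0555 CPM and 11.1 and 10.8 CPM, Ctps, a CTP synthase, was 0.104 and 0 CPM and 11.6 and 12.01 CPM, and both were also high in db/db on water and near 0 in db/db on brazzein. Fam126b was 0.104 and 0.0694 CPM and 28.3 and 19.9 CPM and Arhgef11, a guanine nucleotide exchange factor, 0.0346 and 0.111 CPM and 4.77 and 12.7 CPM, with the same pattern. Zfp367, a zinc finger protein, was 0.0519 and 0.153 CPM and 10.6 and 11.1 CPM on sucrose and the reverse on water (14.1 and 12.5 CPM and 0.168 and 0.0377 CPM). Sdcbp2, a syntenin, was 0.156 and 0.12491 CPM and 10.5 and 13.9 CPM and had differences of 5.52 on water and 5.63 on brazzein. Lamb3, a laminin chain, was 36.01 and 24.8 CPM in db/+ and 0.383 and 0.336 CPM in db/db on sucrose and 6.67 and 2.67 CPM and 30.4 and 28.6 CPM on brazzein. Rnf213, a large ubiquitin ligase, was 48.4 and 35.7 CPM and 6.52 and 2.803 CPM (log2 -3.17, SE 0.43, adjusted p = 0.0262) and had differences of -0.71 on water and -0.37 on brazzein, and neither contrast between drinks passed (adjusted p = 0.856 and 0.249). Cyp2d13 and Car11, a carbonic anhydrase relative, fell by 3.14 and 3.11.

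The last called genes described here belong to no list and were named after their values were seen. Lgals1, a galectin of stromal and immune cells, was 25.4 and 27.2 CPM in db/+ and 218 and 182 CPM in db/db and rose by 2.92 on the log2 scale (SE 0.39, adjusted p = 0.026). The membrane-binding annexins Anxa2 and Anxa5 were the 2 of 11 annexin genes tested that passed, where 0.868% of all genes did. Anxa2 was 20.4 and 13.8 CPM and 63.8 and 80.7 CPM (log2 2.08, adjusted p = 0.0322), and Anxa5 was 72.00 and 66.6 CPM and 233 and 211 CPM (log2 1.68, adjusted p = 0.012). Cd63, a tetraspanin of late endosomes, was 9.75 and 15.8 CPM and 47.04 and 83.8 CPM (log2 2.35, adjusted p = 0.0491). Like all 168 called genes, these 4 did not overlap between genotypes on sucrose. Among genes that fell, Ephx2, the soluble epoxide hydrolase, was 1968 and 1545 CPM and 717 and 687 CPM (log2 -1.32, adjusted p = 0.0202). Retsat, a retinol saturase, was 2904 and 2205 CPM and 747 and 824 CPM (log2 -1.70, adjusted p = 0.0322), with differences of -0.29 on water and 0.02 on brazzein. Its edgeR contrasts between drinks did not pass (adjusted p = 0.915 against water and 0.249 against brazzein). Vtn, the plasma adhesion protein vitronectin, was 2489.7 and 2330.1 CPM and 1476 and 1432 CPM (log2 -0.73, adjusted p = 0.031). Il1rap, the accessory chain of the interleukin-1 receptor, was 174 and 186 CPM and 88.9 and 80.5 CPM (log2 -1.09, adjusted p = 0.012). Of 17 carboxylesterase genes, Ces1g rose (57.4 and 71.7 CPM and 248 and 194 CPM, log2 1.77) and Ces3a fell (1246 and 1416 CPM and 385 and 209.6 CPM, log2 -2.16). The annexin and carboxylesterase families were picked after the calls were seen. Of all genes tested, 0.47% were called higher and 0.398% lower.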

How the data were processed

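Poly(A)-enriched RNA from mouse liver was sequenced after TRIzol extraction and NEBNext Ultra II RNA library preparation, per the labels' protocols. The kit named does not mark strand, so reads of genes on opposite strands of the same locus cannot be separated. The submitters' processing notes name bcl2fastq and GRCm39, without versions, and neither they nor the labels' protocols state how reads were aligned and counted or on which gene models. The authors deposited 1 value per gene name (55797 names) and library, as estimated counts given in whole numbers and not scaled for library size. A gene at 0 is called listed at 0 and no counting interval was computed. Totals ran from 60384569 to 79385804 over the 12 livers. In the 2 db/+ brazzein files the headers name each other's replicate, which changes no group. The brain libraries and a table of the whole series were not used.

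All 12 livers entered 1 edgeR 4.0.16 fit in R 4.3.3 with 6 groups of 2 (genotype by drink, from the titles), TMM factors, filterByExpr by group and quasi-likelihood tests. P-values were adjusted by Benjamini-Hochberg over 19352 genes with a threshold of 0.05. Contrasts were the genotype difference on sucrose and its difference from that on water, on brazzein and on their mean. Fold changes use edgeR's default prior count, and SE is the log2 change divided by the square root of F. The steps were tested on simulated data. Alternatives were DESeq2 1.42.0, limma 3.58.1 (voom with quality weights), RLE in place of TMM, all genes kept whatever their counts, a block by replicate number, leaving out genes near 0 (a median of at least 100 counts with a library under 0.1 of it), leaving out genes whose replicates disagree (10-fold, at 100 counts or more in the higher), fits of fewer libraries and leaving out each library. Names follow a rule: a fixed panel, the 12 highest and 12 lowest changes among called genes with official symbols, at least 1 CPM and no overlap, up to 4 called members per list, and up to 8 called genes of each drink test. The members, the 34 lists and the rule were chosen with earlier results of these data known. Promoters came from RefSeq (GRCm38.p6) and transcript lengths from GENCODE M21, matched by symbol. A few genes that the rule names are not reported here.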

Additional observations from a re-analysis of the deposited data

Results flagged for a closer look

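The genotype difference on sucrose itself differed from that on another drink, by edgeR's test of the difference, in the following genes (values are log2 differences of differences). Against water these were Gm8893 (5.48, adjusted p = 0.00354), Cdc42se2 (9.54, adjusted p = 0.0276) and Kbtbd2 (-12.29, adjusted p = 0.0397). Against brazzein the positive differences were Tent4a (7.49), Mef2d (13.67), Ufl1 (11.37), Unkl (7.66), Cdc42se2 (9.19), Ddx6 (11.48), Zfp7 (3.94), Huwe1 (6.90), Cyp2c70 (3.50) and Parp14 (9.14), and the negative ones Pwp2 (-12.41), Wdr25 (-10.70) and Lamb3 (-9.06), with adjusted p from 0.000452 to 0.0496. Against the mean of both drinks they were Cdc42se2 (9.37), Gm8893 (3.20), Huwe1 (7.21), Mef2d (7.03) and Tent4a (3.63), and Pwp2 (-6.16) and Wdr25 (-6.39), with adjusted p from 0.00604 to 0.0421. The values on the log2 scale of genes listed at 0 in a whole group depend on the prior count and are no bounds. Ufl1, Unkl, Ddx6, Mef2d and Tent4a were at most 0.0439 CPM in both db/db brazzein livers and above 1 CPM in the other 10. Parp14 (0.0527 and 0 CPM) and Zfp7 (0.0922 and 0.0732 CPM) were likewise near 0 only in db/db on brazzein. Gm8893 was 5.83 and 7.896 CPM in db/db on water and at least 184.95 CPM in the other 10 livers. On sucrose its genotype difference did not pass (log2 -0.67, adjusted p = 0.191). Cyp2c70, a P450 of bile acid synthesis in mice, was 8.68 and 13.1 CPM in db/+ and 47.5 and 70.3 CPM in db/db on sucrose and 100.2 and 91.5 CPM and 38.01 and 53.3 CPM on brazzein, and none of these 8 values was near 0.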

How the results depend on the processing

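The count of genotype calls on sucrose (168) was 1590 with DESeq2, 782 with voom, 378 without genes whose replicates disagree, 425 with only the 8 sucrose and water libraries, and from 19 to 438 when leaving out each library in turn. It was 157 with RLE factors, 141 without the filter, 177 without genes near 0 and 157 with the 4 sucrose libraries alone. The count against water (3) was 111 with DESeq2, 5 without the filter, 0 without genes near 0, 6 without genes whose replicates disagree, and from 1 to 32 without each library. Against brazzein (13) it was 496 with DESeq2, 0 with voom, 1 without genes near 0, 24 without genes whose replicates disagree, and from 12 to 162 without each library. Against both drinks (7) it was 314, 1 (voom), 11 (no filter), 0 (near 0), 18 (disagreeing replicates), and from 0 to 87. With a replicate block the 4 counts were 72, 1, 12 and 1, but replicate numbers did not pair the libraries: over 15 pairs of groups the correlation of same-numbered deviations ran from -0.105 to 0.0921. Fits of fewer libraries gave more calls in some cases and fewer in others, and the cause of the changes in these counts was not tested. For the 51 named genes called, 650 of 1052 values under 21 alternatives stayed past the threshold, 402 did not and 0 changed sign. Log2 differences of 8 uncalled genes changed sign without 1 library, with ranges over the libraries left out of -0.34 to 0.19 (Ghr), -0.87 to 0.55 (Slc2a5), -0.23 to 0.059 (Plin2), -0.43 to 0.17 (Fgf21), -0.66 to 0.21 (G6pc), -0.91 to 0.44 (Cyp7a1), -4.77 to 5.08 (Cyp2b9) and -0.50 to 0.53 (Mef2d).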
